A study of Mus musculus with 10 samples.

Results

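A set of 10 genes of fibroblast growth factor (Fgf) signalling was followed in mouse first molar tooth germs: the 4 receptor genes *Fgfr1* to *Fgfr4*, the 3 Sprouty genes *Spry1*, *Spry2* and *Spry4*, the phosphatase gene *Dusp6* and the transcription factor genes *Etv4* and *Etv5*. They were listed by name, with earlier results of these data known, and read by Ensembl identifier, and all 10 of 10 were among the 27528 genes of the array table. RNA came from wild type NMRI embryos, an outbred laboratory stock, at E13.5 (embryonic day, bud stage) and at E14.5 (cap stage). Each stage had 5 arrays, numbered 1, 2, 4, 5 and 6, each of a pool of 12 to 18 germs that held epithelium and mesenchyme together, with a little of the surrounding tissue. Nothing else differed between the groups by their labels, and no germ was treated or mutant.

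Fgf ligands bind receptor tyrosine kinases on the cell surface, and the activated receptors signal through Ras and the mitogen-activated protein kinase Erk. Sprouty proteins and the phosphatase Dusp6 are induced by this signal and dampen it, whereas Etv4 and Etv5 are ETS family transcription factors that carry it to target genes. All are widely used as readouts of Fgf activity. In the tooth, Fgf signals pass in both directions between epithelium and mesenchyme, and the enamel knot, a cluster of epithelial cells that signals at the cap stage, is a source of Fgf ligands.

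Array signals were taken to be on a log2 scale, which the sources do not state, and on which a change of 1 unit is a fold of 2. Array medians over all genes ran from 5.06 to 5.22, and the SD of signals on an array from 1.51 to 1.74. Since the signal also depends on the probes of a gene, levels were compared between stages and not between genes. Each gene had 1 value per array over all its exons, so splice forms, such as the b and c forms of the receptors that bind different ligands, were not separated. The median change of all genes between stages was -0.0145.

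At the cap stage 5 of the set were higher (*Fgfr2*, *Spry2*, *Dusp6*, *Etv4* and *Etv5*), 1 was lower (*Spry4*) and 4 did not pass (limma with Benjamini-Hochberg adjustment over all 27528 genes, adjusted p under 0.05, two-sided, 5 arrays per stage). Over all genes, 4.36% were called higher and 3.49% lower. These shares were larger among brighter genes. With dim genes left out (mean signal under the median of 5.13), 1200 of 13764 genes were higher and 1212 lower. Of the 10 genes 9 were kept in that fit, with 5 higher and 1 lower. The changes that passed ran from 0.52 to 1.48 log2 units upward, and that of *Spry4* was -0.84. The median change of the 10 genes was 0.38. In bulk tissue, a change in the number of cells that express a gene and a change in RNA per cell cannot be told apart. Nothing in the labels says which litters the pools came from, so the tests measure the spread between these pools.

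**Figure D1:**
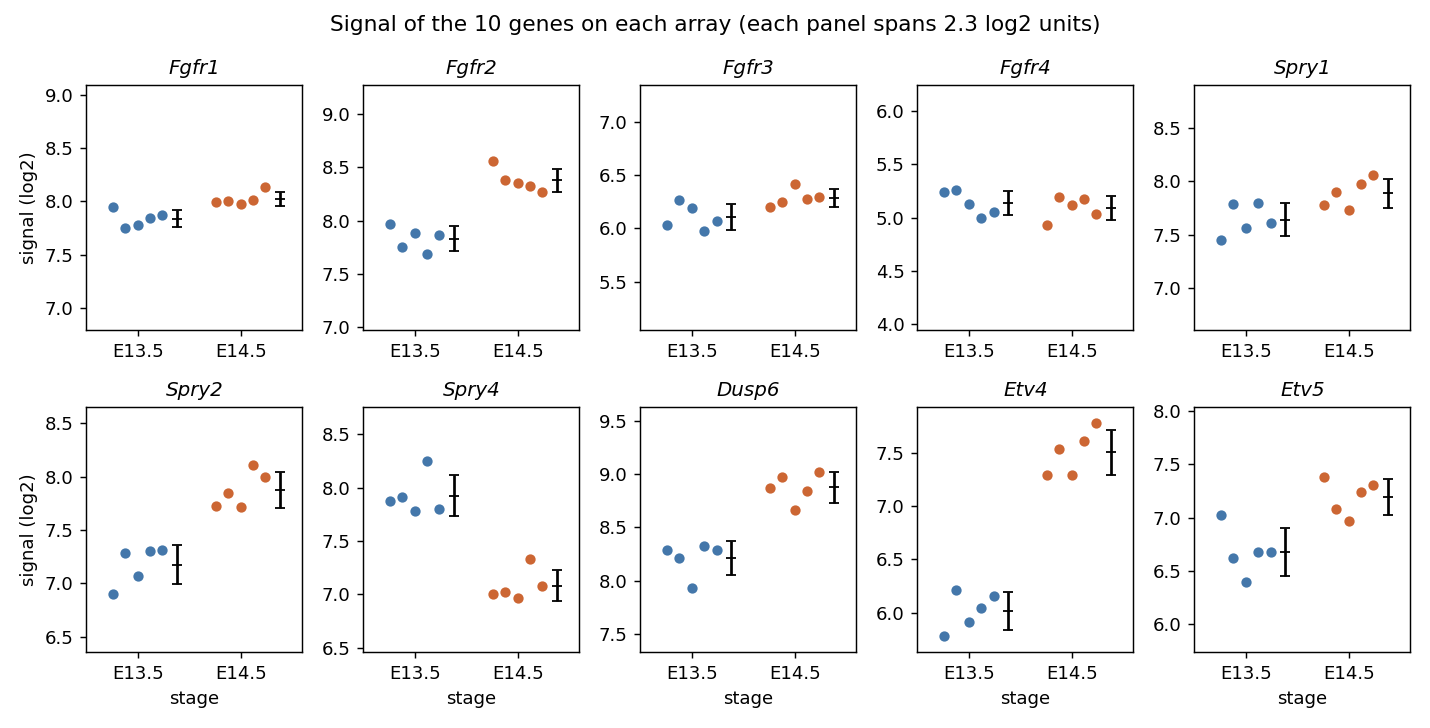
Signal (log2) of each gene on every array at E13.5 (blue) and E14.5 (orange), with points in the order of replicates 1, 2, 4, 5 and 6 and the bar giving the mean ± SD of the 5 arrays. Every panel spans the same number of log2 units. The stages are fully apart in *Fgfr1*, *Fgfr2*, *Spry2*, *Spry4*, *Dusp6* and *Etv4*, with *Spry4* alone lower at E14.5, and the gap is widest in *Etv4*.

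The receptors were examined first. *Fgfr2* (ENSMUSG00000030849) is placed by the study among the genes whose loss arrests the tooth. Its signal was 7.97, 7.75, 7.88, 7.68 and 7.87 on the E13.5 arrays (replicates 1, 2, 4, 5 and 6) and 8.56, 8.38, 8.35, 8.32 and 8.27 on the E14.5 arrays. All E14.5 arrays lay above all E13.5 arrays, with a gap of 0.30. The mean rose from 7.83 ± 0.11 to 8.38 ± 0.11 (SD over 5 arrays at each stage). This is 0.55 ± 0.08 log2 units (SE, limma adjusted p = 0.000946) or 1.46-fold. Within E14.5, *Fgfr2* and *Etv5* were highest on replicate 1, while *Fgfr1*, *Spry1*, *Dusp6* and *Etv4* were highest on replicate 6.

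*Fgfr1* (ENSMUSG00000031565), in the study's tissue category (genes with defects of dentine or enamel when lost), read 7.95, 7.75, 7.78, 7.84 and 7.87 at E13.5 and 8.00, 8.01, 7.97, 8.01 and 8.14 at E14.5. The stages did not overlap, but the lowest E14.5 array was only 0.0217 above the highest E13.5 array. The mean was 7.84 ± 0.08 and then 8.03 ± 0.06 (SD, n = 5), a difference of 0.19 ± 0.06 (SE) that did not pass (limma adjusted p = 0.11, 95% interval 0.05 to 0.32). *Fgfr1* did pass once arrays were quantile normalized (0.23, limma adjusted p = 0.0231), weighted (0.21, limma adjusted p = 0.0235) or fitted with the spread of each array as a covariate (0.20, limma adjusted p = 0.042).

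*Fgfr3* (ENSMUSG00000054252), best known as a brake on growing cartilage, read 6.04, 6.26, 6.19, 5.97 and 6.07 at E13.5 and 6.20, 6.24, 6.42, 6.28 and 6.29 at E14.5. These overlapped, and the difference of 0.18 did not pass (limma adjusted p = 0.202, 95% interval 0.02 to 0.34). *Fgfr4* (ENSMUSG00000005320), which the study lists as dispensable for the tooth, read 5.24, 5.26, 5.13, 5.00 and 5.05 at E13.5 and 4.93, 5.19, 5.12, 5.17 and 5.03 at E14.5. Its stages overlapped over most of their range, at signals close to the array medians. The difference was -0.0462 (limma adjusted p = 0.864, 95% interval -0.21 to 0.12).

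Whether the receptors changed unequally was asked with the difference between a pair of genes on the same array, over 6 receptor pairs, 3 Sprouty pairs and the Etv pair (exact two-sided permutation test over all assignments of the arrays to stages, adjusted over 10 pairs, smallest possible p 0.00794). The signal of *Fgfr2* changed more than that of each of the other receptors. *Fgfr2* minus *Fgfr1* went from -0.0075 ± 0.09 to 0.35 ± 0.16 (SD, n = 5), a difference in change of 0.36 (exact permutation p = 0.00794, adjusted 0.0113). The change of *Fgfr3* fell short of that of *Fgfr2* by a difference of -0.37, and that of *Fgfr4* by -0.59 (exact permutation p = 0.00794, adjusted 0.0113, for each). In these 3 pairs no E14.5 array reached into the E13.5 range. *Fgfr4* was dim, with means of 5.14 (bud stage) and 5.09 (cap stage) that lay among the array medians (5.06 to 5.22). Whether so low a signal could follow a change in RNA was not tested. The pairs with *Fgfr4*, here and below, therefore compare signals only.

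*Fgfr4* also differed from *Fgfr3* (-0.23, exact permutation p = 0.0159, adjusted 0.0198) and from *Fgfr1* (-0.23, exact permutation p = 0.0397, adjusted 0.0441), with some overlap of arrays. The latter difference lost its call when any one of 7 arrays was left out (replicates 1, 2 and 4 of E13.5 and replicates 1, 4, 5 and 6 of E14.5), at values from -0.26 to -0.18 and adjusted exact permutation p from 0.0529 to 0.123. *Fgfr3* and *Fgfr1* were not shown to differ in their change (-0.0067, exact permutation p = 0.968, adjusted 0.968).

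The Sprouty genes encode intracellular inhibitors of receptor tyrosine kinase signalling, and *Spry2* and *Spry4* are in the study's shape category, genes whose loss alters the form of the tooth. In the embryonic tooth row *Spry2* is known mainly from epithelium and *Spry4* from mesenchyme. The 3 genes did not move together. *Spry2* (ENSMUSG00000022114) read 6.90, 7.29, 7.06, 7.30 and 7.31 at E13.5 and 7.73, 7.84, 7.72, 8.10 and 7.99 at E14.5. The stages were apart by 0.40. The mean rose from 7.17 ± 0.18 to 7.88 ± 0.17 (SD, n = 5), by 0.70 ± 0.11 (SE, limma adjusted p = 0.00142) or 1.63-fold.

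*Spry4* (ENSMUSG00000024427) read 7.88, 7.92, 7.78, 8.25 and 7.80 at E13.5 and 7.00, 7.03, 6.96, 7.33 and 7.08 at E14.5. Every E14.5 array was below every E13.5 array, with a gap of 0.45, and replicate 5 was the highest at both stages. The mean fell from 7.92 ± 0.19 to 7.08 ± 0.15 (SD, n = 5), a log2 difference of -0.84 ± 0.10 (SE, limma adjusted p = 0.000331), to 0.557 of the E13.5 signal. By size of change *Spry4* ranked 279 of all 27528 genes.

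*Spry1* (ENSMUSG00000037211) read 7.45, 7.79, 7.56, 7.80 and 7.61 at E13.5 and 7.77, 7.90, 7.73, 7.98 and 8.06 at E14.5. The E13.5 arrays of replicates 2 and 5 reached above the lowest of E14.5. The difference of 0.25 ± 0.09 (SE) did not pass (limma adjusted p = 0.152, 95% interval 0.05 to 0.45).

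All 3 Sprouty pairs differed in their change, without overlap of arrays. *Spry4* minus *Spry2* went from 0.75 ± 0.21 to -0.80 ± 0.07 (SD, n = 5), a difference of -1.55, which was the largest of the 10 pairs (exact permutation p = 0.00794, adjusted 0.0113). It was -1.09 for *Spry4* minus *Spry1* and 0.46 for *Spry2* minus *Spry1*, with the same exact permutation p of 0.00794.

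**Figure D2:**
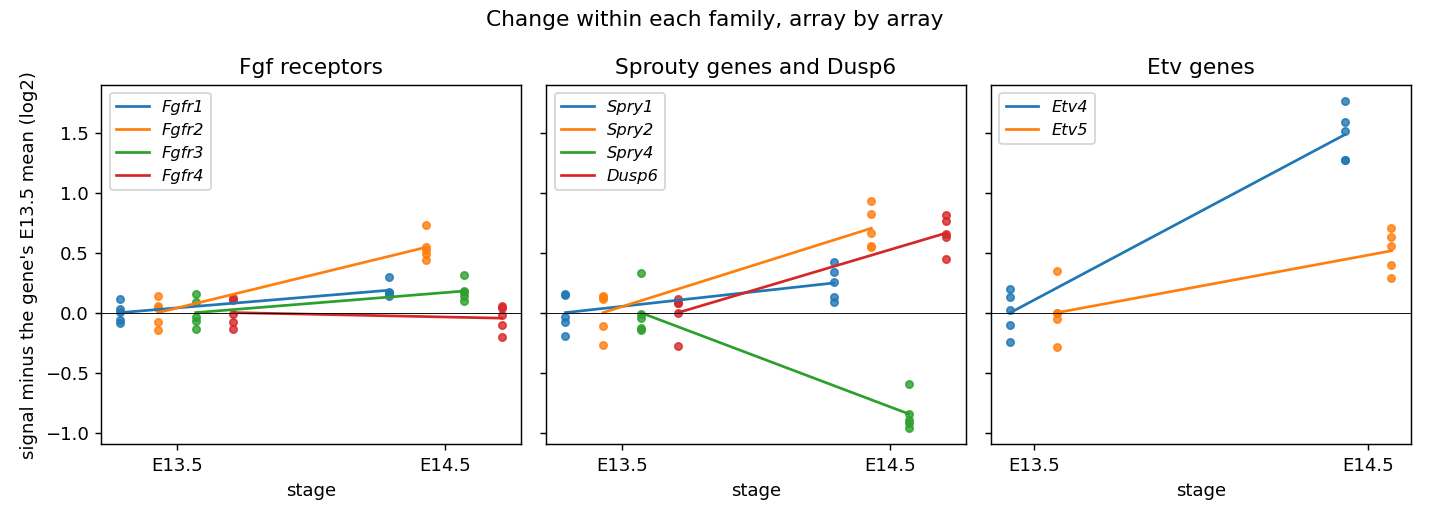
Signal of each gene minus its own E13.5 mean (log2), for the receptors, for the Sprouty genes with *Dusp6*, and for the Etv genes. Points are single arrays, 5 per stage, and lines join the stage means. *Fgfr2* leaves the other receptors behind at E14.5, *Spry4* falls by 0.84 where *Spry2* rises by 0.70, and *Etv4* rises by 1.48 against 0.52 for *Etv5*.

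*Dusp6* (ENSMUSG00000019960), the cytoplasmic phosphatase that inactivates Erk, read 8.29, 8.21, 7.93, 8.32 and 8.29 at E13.5 and 8.87, 8.98, 8.66, 8.84 and 9.02 at E14.5. The stages were apart by 0.33, and replicate 4 was the lowest array at both. The mean rose from 8.21 ± 0.16 to 8.87 ± 0.14 (SD, n = 5), by 0.66 ± 0.09 (SE, limma adjusted p = 0.000922) or 1.58-fold. *Dusp6* moved with the sign of *Spry2* and against that of *Spry4*, although all 3 encode inhibitors of the same signal.

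Of the Etv genes, *Etv4* gave the largest change of the set and *Etv5* the smallest of those that passed. *Etv4* (ENSMUSG00000017724, also known as Pea3) read 5.78, 6.21, 5.91, 6.04 and 6.15 at E13.5 and 7.29, 7.54, 7.29, 7.61 and 7.78 at E14.5. The lowest E14.5 array was 1.08 above the highest E13.5 array, a gap wider than the whole range of either stage (0.44 and 0.49). The mean rose from 6.02 ± 0.18 to 7.50 ± 0.21 (SD, n = 5), by 1.48 ± 0.11 (SE, limma adjusted p = 1.4e-05) or 2.79-fold. Its change ranked 34 by size among the 27528 genes.

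*Etv5* (ENSMUSG00000013089, also known as Erm) read 7.02, 6.62, 6.39, 6.67 and 6.68 at E13.5 and 7.38, 7.08, 6.96, 7.24 and 7.31 at E14.5. The stages overlapped, since E13.5 replicate 1 was above E14.5 replicate 4. The mean rose from 6.68 ± 0.23 to 7.19 ± 0.17 (SD, n = 5), by 0.52 ± 0.12 (SE, limma adjusted p = 0.0178) or 1.43-fold. Without E14.5 replicate 6 the change was 0.49 and the call was lost (limma adjusted p = 0.055). *Etv5* changed less than *Etv4*, as *Etv5* minus *Etv4* went from 0.66 ± 0.34 to -0.31 ± 0.23 (SD, n = 5), a difference of -0.97 (exact permutation p = 0.00794, adjusted 0.0113).

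**Figure D3:**
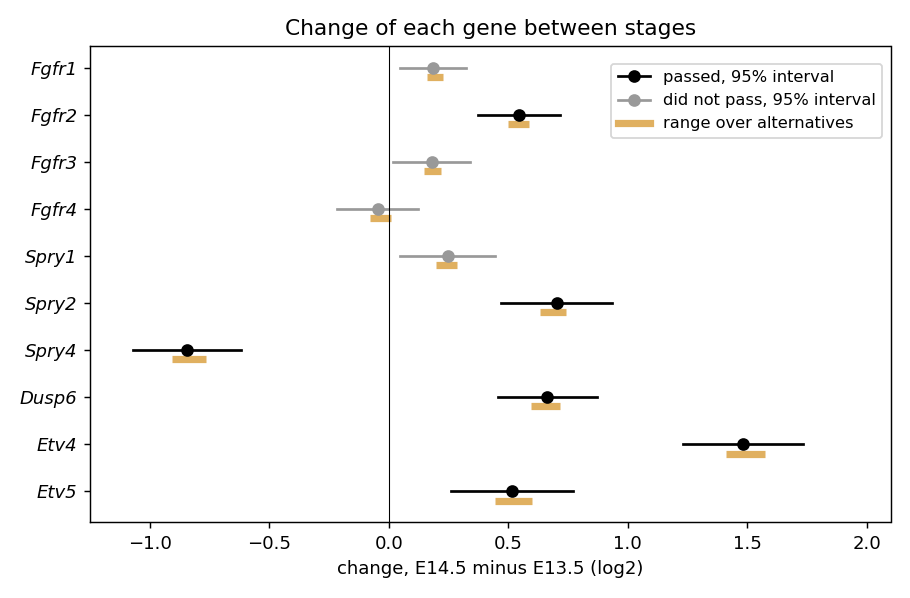
Change of each gene from E13.5 to E14.5 (log2) with its 95% interval from the limma fit, black where the adjusted p was under 0.05 and grey where it was not. Ochre bars show the lowest and highest change over the alternative settings. The intervals of *Fgfr1*, *Fgfr3* and *Spry1* lie above 0 without an adjustment for the number of genes, and that of *Fgfr4* spans 0.

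Without regard to the fit, every cap stage array lay above every bud stage array in 5 genes (*Fgfr1*, *Fgfr2*, *Spry2*, *Dusp6* and *Etv4*), where 4.82% of all genes showed this, and below in 1 gene (*Spry4*), where 4.01% did. Within a stage the widest range was that of *Etv5* at E13.5 (0.63) and the narrowest that of *Fgfr1* at E14.5 (0.16). In 7 of the 10 genes the lowest cap stage value was on E14.5 replicate 4, whose signals had the smallest SD of all arrays. Without it the counts were again 5 higher and 1 lower.

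The bases before the start sites of the genes were read for letters that ETS factors bind, whether or not the gene changed. Sequence was read for 7 of the 10 genes (RefSeq, GRCm38.p6), and not for *Fgfr1*, *Spry4* and *Etv4*. The windows were the 250 bases before each annotated start, 9 windows in all, since *Fgfr3* and *Etv5* have 2 starts. The motifs AGGAAG and CGGAAG, which differ in their first letter, were searched on both strands. Either was found in 3 of the 9 windows, those of *Fgfr2*, *Fgfr4* and *Dusp6*, and in 39.2% of 32841 windows of all genes (AGGAAG in 29.5% and CGGAAG in 13.6%). All windows read for the genes that rose, which leave out *Etv4*, are shown with or without a motif. They run 5′ to 3′ on the strand of the gene, with the motif letters in capitals. They lie at chr10:99262981-99263230 (+ strand) for *Dusp6*, chr7:130266809-130267058 (− strand) for *Fgfr2*, chr14:105896820-105897069 (− strand) for *Spry2*, and chr16:22439571-22439820 and chr16:22438369-22438618 (− strand) for the first and the other start of *Etv5*.
Dusp6: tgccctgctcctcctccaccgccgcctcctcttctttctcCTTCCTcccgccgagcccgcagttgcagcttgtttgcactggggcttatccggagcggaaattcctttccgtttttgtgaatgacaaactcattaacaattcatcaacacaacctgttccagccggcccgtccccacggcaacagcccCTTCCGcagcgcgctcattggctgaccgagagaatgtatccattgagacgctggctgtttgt
Fgfr2: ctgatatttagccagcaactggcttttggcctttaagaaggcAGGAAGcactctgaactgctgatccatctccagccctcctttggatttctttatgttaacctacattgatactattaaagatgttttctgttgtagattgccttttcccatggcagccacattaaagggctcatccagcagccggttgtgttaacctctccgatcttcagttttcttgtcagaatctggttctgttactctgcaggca
Spry2: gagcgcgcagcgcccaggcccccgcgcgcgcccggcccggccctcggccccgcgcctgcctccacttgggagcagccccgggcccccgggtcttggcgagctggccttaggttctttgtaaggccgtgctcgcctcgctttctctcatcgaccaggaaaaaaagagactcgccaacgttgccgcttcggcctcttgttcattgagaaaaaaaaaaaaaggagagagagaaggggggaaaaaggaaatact
Etv5, first start: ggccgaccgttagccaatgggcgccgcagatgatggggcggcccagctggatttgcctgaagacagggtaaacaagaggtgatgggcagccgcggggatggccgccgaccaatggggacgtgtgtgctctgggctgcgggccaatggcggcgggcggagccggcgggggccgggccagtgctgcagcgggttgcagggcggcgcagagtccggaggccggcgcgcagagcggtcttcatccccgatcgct
Etv5, other start: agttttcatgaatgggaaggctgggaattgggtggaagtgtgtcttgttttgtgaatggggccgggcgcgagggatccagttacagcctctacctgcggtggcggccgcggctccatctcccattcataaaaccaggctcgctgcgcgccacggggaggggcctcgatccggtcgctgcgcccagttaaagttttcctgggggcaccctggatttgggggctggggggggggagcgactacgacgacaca

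The window of *Dusp6* held AGGAAG on the opposite strand, 210 to 205 bases before the start, and CGGAAG on the opposite strand at 62 to 57 bases. That of *Fgfr2* held AGGAAG at 208 to 203 bases, on the strand of the gene. *Spry2*, *Spry1*, *Fgfr3* and *Etv5* held neither in these windows, and *Fgfr4*, whose signal was not shown to change, held AGGAAG at 238 to 233 bases.

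Among the other genes that the study pairs with an identifier, those with the most similar profile were found by the root mean square difference over the 10 arrays, after each gene was centred on its own mean. This measure includes the stage change, so a small value partly restates a like change and is no separate result. For *Etv4* these were *Wnt10a* (0.134), *Fgf4* (0.157) and *Reln* (0.208). For *Spry2* they were *Bmp2* (0.111), *Rnf43* (0.113) and *Notch1* (0.133), and for *Dusp6* *Edaradd* (0.137), *Bmp2* (0.141) and *Cspg4* (0.151). *Wnt10a*, *Fgf4* and *Bmp2* encode secreted signals of the enamel knot, while *Reln*, *Rnf43*, *Notch1*, *Edaradd* and *Cspg4* are not among the knot markers used below.

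For *Fgfr2* the closest were *Clu* (0.107), *Fzd6* (0.115) and *Fgf1* (0.12), and for *Etv5* *Nfkbia* (0.146), *Socs3* (0.162) and *Dab1* (0.166). For the falling *Spry4* they were *Dlx6* (0.124), *Inhba* (0.124) and *Fgf10* (0.146), and *Inhba* and *Fgf10* encode signals of the dental mesenchyme. All values are in log2 units over 394 or 395 candidate genes, and all genes compared share the same arrays.

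The study's list of Fgf pathway genes, which also holds Egf pathway genes, has 66 members, 6 of them among the 10 genes above (the 4 receptors, *Spry2* and *Spry4*), and all were measured. Of the 66, 10 were called higher and 9 lower at E14.5, or 28.8% against 7.85% of all genes in either direction, with a median change of 0.03 against -0.0145. Leaving out the 6 genes, 8 of 60 were higher and 8 lower. By role these were 4 higher and 4 lower of 17 ligands, 1 lower of 2 receptors, 2 higher and 3 lower of 32 intracellular genes and 2 higher of 9 transcription factors. The share over all genes was larger with dim genes left out (mean signal under 5.13), where 2412 of 13764 were called. Of the Fgf pathway genes kept in that fit, 11 were higher and 9 lower. How many of the 66 were kept was not counted, so no share of them can be set beside that of all genes kept.

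Among the called genes of the list other than the 10, the largest rises were those of *Fgf4*, from 5.56 to 7.15 (1.59 ± 0.11, SE, limma adjusted p = 8.17e-06), *Fgf16* (1.09), *Fgf3* (0.82) and *Fgf1* (0.42), all ligands, followed by *Nfkb2* (0.41), an NF-kB subunit. *Fgf4* is made by the enamel knot and *Fgf3* by the knot and the mesenchyme below it. Among the same genes, the largest falls were those of *Pdgfra*, from 8.05 to 6.92 (-1.13 ± 0.11, SE, limma adjusted p = 6.55e-05), *Fgf10* (-0.78), *Fgf13* (-0.68), *Fgf2* (-0.68) and *Gab1* (-0.60). *Pdgfra* is a receptor for platelet-derived growth factor in mesenchyme, *Fgf10* is a mesenchymal ligand for the b form of Fgfr2, and *Gab1* encodes a docking protein between receptor and kinase cascade. *Fgf13* belongs to the Fgf homologues that stay inside the cell, although the study counts it as a ligand. Some of the ligands named were dim. At E13.5 the means of *Fgf16*, *Fgf3* and *Fgf1* were 4.62, 4.35 and 4.38, and at E14.5 those of *Fgf1* and *Fgf10* were 4.80 and 4.65. All lie under every array median (5.06 to 5.22). Without detection calls, whether these signals stood clear of background was not tested.

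**Figure D4:**
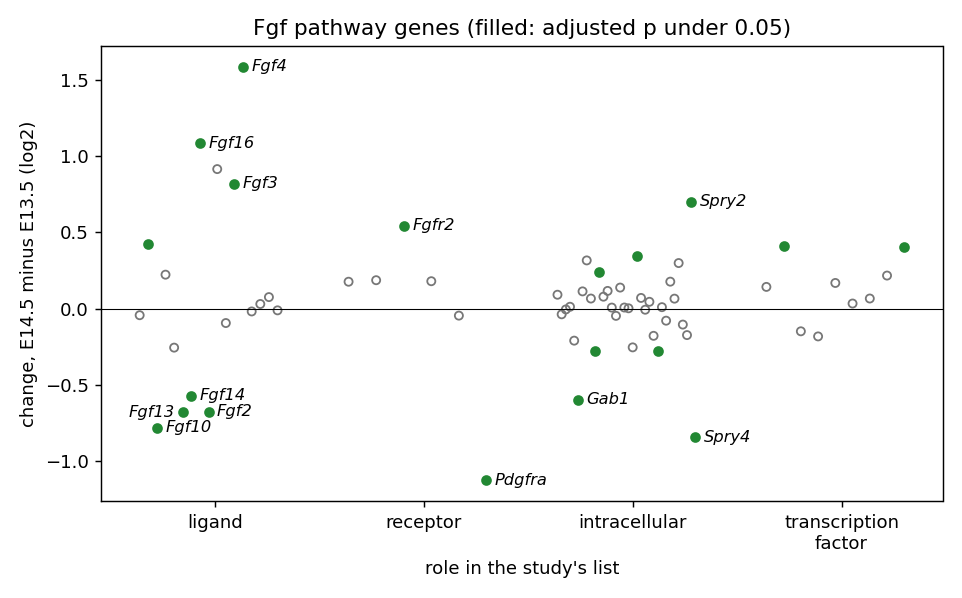
Change from E13.5 to E14.5 (log2) of the 66 genes on the study's Fgf pathway list by role, each point 1 gene, filled where the limma adjusted p was under 0.05. Names are given for called genes with a change over 0.5 in size. Called ligands lie on both sides of 0, and *Fgfr2* is the one receptor called higher.

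Markers of the tissue layers also moved between the stages. Of 7 markers of dental epithelium 6 were higher at E14.5 and 0 lower, and the median of the list was 7.23 to 7.76 on the E13.5 arrays and 7.94 to 8.34 on the E14.5 arrays. Of 7 markers of dental mesenchyme 6 were lower and 1 (*Runx2*, -0.0859) did not pass, with list medians of 8.47 to 8.86 and then 7.35 to 7.53. *Pdgfra* is on this list as well as on the pathway list. The summed log2 signal of the list was 49.9 to 53.1 and then 55.8 to 57.5 for epithelium, and 58.1 to 59.5 and then 51.5 to 52.5 for mesenchyme. No marker of either layer had a stage mean under 5.73.

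The rises of *Fgfr2* (0.55), *Spry2* (0.70), *Dusp6* (0.66) and *Etv5* (0.52) stood beside one of 0.60 in the epithelial median, and that of *Etv4* was 1.48. The change of *Spry4* (-0.84) stood beside one of -1.21 in the mesenchymal median. Of 12 enamel knot markers 8 were higher (*Fgf4* among them) and 1 lower (*Bmp4*, also made by the mesenchyme), and their median went from 6.02 to 6.31 at E13.5 to 6.89 to 7.18 at E14.5, a difference of 0.89. Their summed log2 signal was 72.2 to 76.4 and then 83.4 to 87.3. Among the knot markers called higher, *Dkk4* (4.55) and *Msx2* (5.11) were dim at E13.5, under or among the array medians (5.06 to 5.22). The knot markers that did not pass were *Fgf9* (-0.0116, limma adjusted p = 0.978), *Fgf20* (0.92, limma adjusted p = 0.0549) and *Bmp7* (0.54, limma adjusted p = 0.071). In the tissue around the germ, 2 of 5 connective tissue markers were higher (*Col1a1* and *Dcn*) and 1 lower (*Postn*), while *Fbln1* and *Fbln2* did not pass. The summed log2 signal of this list was 42.049 to 42.623 and then 42.575 to 42.957, so the stages overlapped. The part of the tissue layers in the changes of the Fgf genes was not tested.

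**Figure D5:**
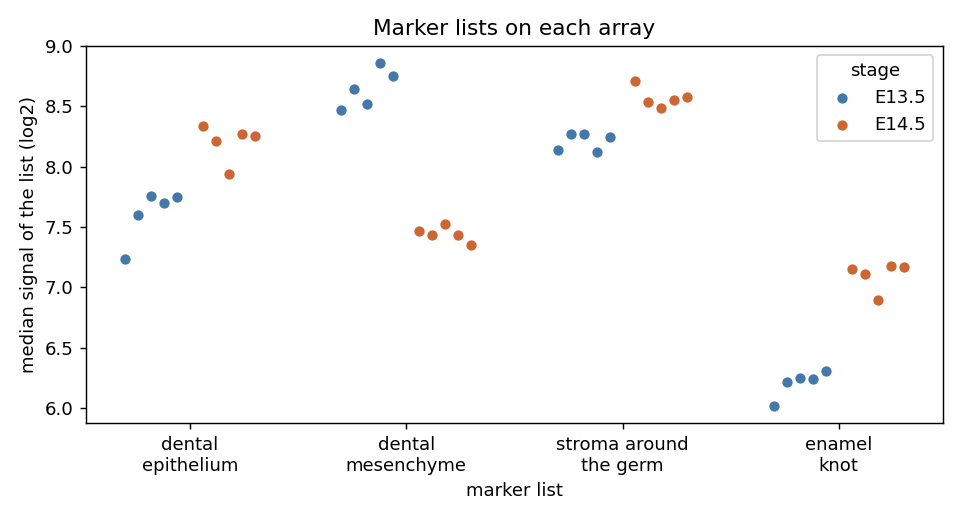
Median signal (log2) of 4 marker lists on each array at E13.5 (blue) and E14.5 (orange). The epithelial (7 genes), stromal (5 genes) and enamel knot (12 genes) medians are higher on every E14.5 array than on any E13.5 array, and the mesenchymal median (7 genes) is lower. Of the 5 stromal genes 2 were called higher and 1 lower.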

How the data were processed

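RNA of 10 pools of molar germs was hybridised to Affymetrix Mouse Exon 1.0 arrays. For normalization the authors used aroma.affymetrix with a custom CDF from Brainarray that collects all probes of an Ensembl gene into 1 set. The table they deposited was taken to be log2 from its range (1.30 to 12.83), because the log base is not stated. Background correction, summary model and genome build are not given in the sources used here, and neither scanner files nor detection calls were used. The number of arrays limits the precision. No arrays held identical values.

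The stage difference, cap minus bud, was fitted to all genes without covariates or a filter on dim genes by lmFit and eBayes of limma 3.58.1 (R 4.3.3), with Benjamini-Hochberg adjustment over all genes. Pairs of genes were tested by exact permutation, and plots were made with Python 3.11.15 and matplotlib 3.10.9. Genes outside the 10 were named by rule: the 5 largest called rises and falls on the study's Fgf list, the 3 closest profiles of each called gene, and genes of marker lists, of which 1 epithelial marker is not reported here by itself. Symbols came from the study's tables, except *Spry1*, *Etv4*, *Etv5* and *Dusp6*, matched by Ensembl identifier alone. The members, lists and tests were chosen with earlier results of these data known. Alternatives were quantile normalization, centring, array weights, a variance trend, a filter on dim genes, array spread as a covariate, a replicate block, and leaving out each array. For single genes, an unadjusted exact permutation test and a subtraction of the median shift, with the p-value of the main fit, were also counted.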

Additional observations from a re-analysis of the deposited data

Results flagged for a closer look

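In 48 sets of 5 arrays (the 10 genes, 10 other Fgf pathway genes and 4 marker medians at each stage), 1 array stood apart from its 4 neighbours in 3 sets, by a gap of over 0.71 of the range. By chance about 1 set in 20 does so, or 2.4 sets.

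At E14.5, *Fgfr1* was at 8.14 on replicate 6, while its neighbours were at 7.97 to 8.01. Without this array its difference between stages was 0.16 (limma adjusted p = 0.279, with 0.0231 to 0.279 over all alternatives). On E14.5 replicate 4, *Fgf10* was at 4.79 and elsewhere in the stage at 4.59 to 4.63. The median of the 12 enamel knot markers was 6.89 on E14.5 replicate 4, against 7.11 to 7.18, and this array also had the lowest spread of signals (1.51).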

How the results depend on the processing

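The calls of *Fgfr2*, *Spry2*, *Spry4*, *Dusp6* and *Etv4* were kept, with their direction, in each of 19 alternatives per gene. Their changes were 0.50 to 0.59, 0.64 to 0.74, -0.91 to -0.76, 0.60 to 0.72 and 1.41 to 1.57, in that order. Among the 19, taking the median shift off each gene left its p-value as in the main fit, so it could not alter a call. The exact permutation test among them was read without adjustment. Array weights moved the genes called higher and lower from 1201 and 961 to 1939 and 1972, and the Fgf pathway genes called higher from 10 to 18. They also turned the sign of *Fgfr4* (0.0113, limma adjusted p = 0.936). With a change of at least 1 log2 unit, 85 and 86 genes were called, with 1 of the 10 genes higher (*Etv4*) and 0 lower. Without 1 array, 4 or 5 of the 10 genes were higher and 1 lower. All genes called lower then ran from 612 (without E13.5 replicate 5; 619 without E14.5 replicate 6) to 1350 (without E13.5 replicate 2). *Fgfr1*, *Fgfr3* and *Spry1* passed by a per-gene exact permutation test with no adjustment (p = 0.00794, 0.0317 and 0.0476). The difference between *Fgfr3* and *Fgfr1* ran from -0.0527 to 0.0551 when 1 array was left out, and was above 0 in 4 of these fits: 0.0551 and 0.0294 (bud stage replicates 2 and 4 left out), 0.0076 and 0.02 (cap stage replicates 1 and 6).

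Same-numbered arrays were not paired by the labels, and their deviations from the stage means correlated across genes by 0.39, -0.0792, 0.51, 0.0304 and 0.28 for replicates 1, 2, 4, 5 and 6. As replicates 2 and 5 did not exceed 0.1, the numbers were not taken as pairs, although some same-numbered arrays did deviate together. E13.5 replicates 1 and 4 alone correlated best with their own number. With a replicate block, 5 of the 10 genes were again higher and 1 lower, with *Etv5* at a limma adjusted p of 0.00342. A sign-flip test of same-numbered pairs cannot go below p = 0.0625, so 0 of 10 pairs of genes passed it, against 9 by the permutation test. *Fgfr4* was not tested without dim genes, as its mean signal lay under the median of 5.13.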
